A study of Mus musculus with 6 samples.

Results

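Messenger RNA levels after knockdown of pyruvate kinase M (PKM) were compared between 1 RNA library of knockdown cells (siPKM) and 1 RNA library of control cells (siCtrl). These are 2 of the 6 libraries of the series, and the comparison covered all 6535 transcript rows of the deposited table. The study sequenced RNA and ribosome-protected fragments (RPF, the footprints of ribosomes on messages) from wild-type E14 mouse embryonic stem cells, an established line, and also RNA crosslinked to tagged PKM2. In the siPKM group, cells were transfected with an ON-TARGETplus siRNA pool against PKM, covering the splice forms PKM1 and PKM2. In the siCtrl group, cells received the ON-TARGETplus Non-targeting Pool. Both groups shared the rest of the treatment given in the labels: 20 nM siRNA for 36 h with RNAimax, growth on gelatin in serum medium with LIF, passaging 16 h before harvest, and cycloheximide at 100 µg/ml for 2 min. RNA was total RNA depleted of ribosomal RNA. The model is transient and partial, since part of the target message was still present, and a pool of siRNAs does not separate the effects of its single members.

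Pyruvate kinase makes pyruvate and ATP in the last step of glycolysis. Pyruvate is then reduced to lactate by lactate dehydrogenase or enters the mitochondrion, where it feeds the citric acid cycle. PKM2 is the splice form typical of embryonic and other proliferating cells, and mouse embryonic stem cells grown in serum and LIF are known for high glycolytic flux.

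The values are raw counts of reads in the coding sequence (CDS) without the first 15 and last 5 codons. The siPKM RNA library had 10357272 such reads and the siCtrl RNA library 12122153, with medians of 689 and 764 reads per row. Levels are given as CPM (CDS reads scaled to the library's sum) and serve only to compare a gene between libraries, because no coding lengths were at hand. Each log2 ratio is siPKM over siCtrl, scaled by the library sums and centred on the median of all rows, so a ratio of 0 is that of the median row and a difference shared by all messages cannot be seen. Intervals in parentheses are exact 95% binomial intervals of the ratio from the read counts, except where another kind is named. They cover counting error only. With 1 library a group there is no test and no replicate check, and "higher" and "lower" below describe these libraries. Markers of embryonic stem cells were present in both, with 9 of 10 listed markers in the table and a summed level of 4744 CPM in siPKM RNA and 4815 CPM in siCtrl RNA. Single markers lay on both sides of the median row, from Zfp42 at -0.29 (-0.33 to -0.25) to Esrrb at 0.55 (0.46 to 0.64). Between them were Sox2 at -0.15, Tdgf1 at -0.12, Dppa5a at -0.06, Pou5f1 at -0.04, Utf1 at 0.07, Sall4 at 0.19 and Klf4 at 0.31, and Nanog was not in the table.

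The targeted gene had the lowest ratio of all rows. Pkm, listed as Pkm2 (NM_011099), had 16371 reads in siPKM RNA and 60849 reads in siCtrl RNA. Of all CDS reads it took 0.158% in siPKM RNA (0.156 to 0.161, exact Clopper-Pearson interval), against 0.502% in siCtrl RNA (0.498 to 0.506). The log2 ratio was -1.71 (-1.74 to -1.69) from CDS reads and -1.63 from 3' UTR reads of the same libraries. In the footprint libraries the share was 0.168% in siPKM RPF (0.166 to 0.170), against 0.530% in siCtrl RPF (0.527 to 0.534). The direction is that of the labels, and the row does not separate PKM1 from PKM2.

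Most messages stayed close to the median row. The SD of the log2 ratio over all rows was 0.277, and the central 90% of rows lay between -0.39 and 0.49. A 1.5-fold limit was passed by 188 rows that were higher in siPKM RNA (2.88%) and by 83 rows that were lower (1.27%). Thus 69.4% of the rows past this limit were on the higher side, and without centring on the median the split was 243 higher and 62 lower, or 79.7% higher. A 2-fold difference was reached by 21 rows upward and 10 downward. The median width of the counting intervals was 0.303 on the log2 scale. Every row had at least 151 CDS reads in each library, so a message under that floor in either group is not analysed here. For 629 rows the siCtrl count was so near this floor that a ratio past the limit on the lower side could not appear. For 327 rows the siPKM count was so near it that a ratio past the limit on the higher side could not appear.

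**Figure D1:**
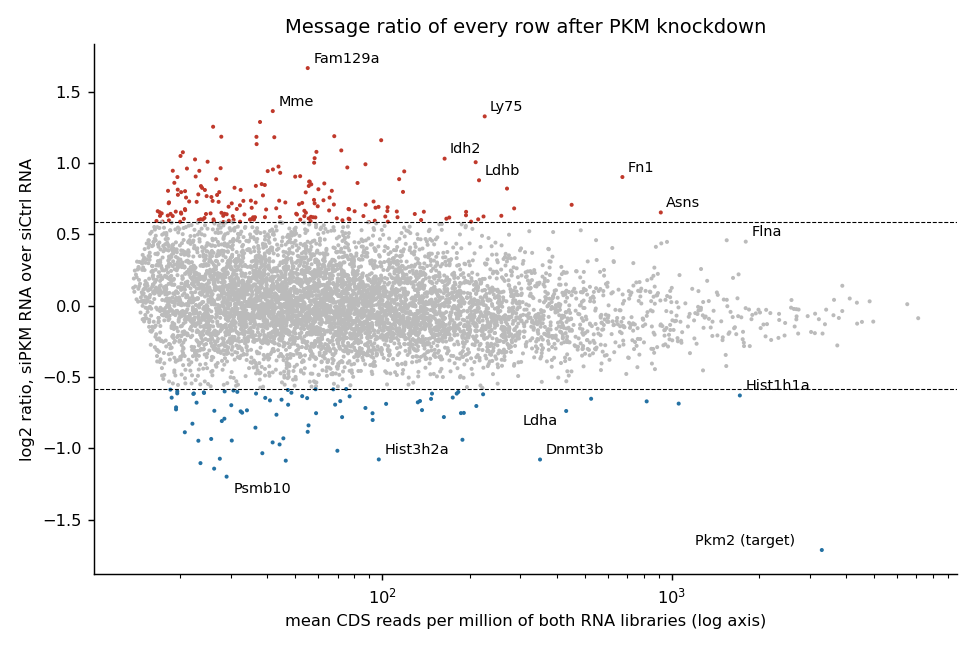
The log2 ratio of siPKM RNA over siCtrl RNA (y axis) is plotted against the mean CPM of both libraries (x axis, log scale) for all 6535 rows, with dashed lines at 1.5-fold. Red points are the 188 rows at least 1.5-fold higher, blue points the 83 rows at least 1.5-fold lower, and Pkm2 lies alone at the bottom right at -1.71.

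Lowly and highly counted messages differed slightly in their centre. Over 5 bins of 1307 rows ordered by mean CPM, the median log2 ratio of the lowest bin was 0.09, with 68 rows at least 1.5-fold higher and 25 lower. In the highest bin the median was -0.08, with 14 rows higher and 15 lower. The SD was 0.315 in the lowest bin and 0.230 in the highest. Lists of abundant messages, such as ribosomal proteins and chaperonins, are therefore best read beside a median of -0.08 and not of 0. Lists with many low-count messages are likewise best read beside the lowest bin. Its median was 0.09, and 68 of its 1307 rows were higher, a larger share than the 2.88% of all rows.

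The 20 rows with the highest ratio include genes of surface, secreted and lipid-handling proteins. Fam129a (Niban1), known as a stress-responsive gene, had 84.6 CPM in siPKM RNA, against 25.8 CPM in siCtrl RNA, a log2 ratio of 1.67 (1.48 to 1.86). Mme, the membrane endopeptidase neprilysin, had 60.7 CPM in siPKM RNA, against 22.9 CPM in siCtrl RNA, a ratio of 1.36 (1.16 to 1.57). Ly75, an endocytic receptor, had 326 CPM in siPKM RNA, against 126 CPM in siCtrl RNA, a ratio of 1.33 (1.24 to 1.41). In all 3 the siPKM library was more than 2-fold above the siCtrl library. Prex2, an exchange factor for Rac, stood at 1.29, and Grik3, a kainate receptor subunit, at 1.25. Lipid-handling genes among the 20 were Fabp3, a fatty acid binding protein, at 1.19, and Abca1, which exports cholesterol from cells, at 1.13. Sfrp1, a secreted Wnt antagonist, stood at 1.18 and Dact2, a Dishevelled-binding modulator, at 1.18. Matrix and secreted proteins were the proteoglycan Hspg2 (perlecan) at 1.01, the serine protease Htra1 at 1.05, the adhesion protein Tgfbi at 1.02 and the glypican Gpc4 at 1.01. The others were the pluripotency factor Tbx3 at 1.18, the membrane repair protein Myof at 1.16, the myosin Myo18a at 1.09, Erbb2ip (Erbin) at 1.08, the ubiquitin ligase Rnf128 at 1.07, the renin binding protein and sugar epimerase Renbp at 1.03 and mitochondrial isocitrate dehydrogenase Idh2 at 1.03.

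Below Pkm, the rows with the lowest ratio came from several pathways. Psmb10, a catalytic subunit of the immunoproteasome, had 18.0 CPM in siPKM RNA, against 39.9 CPM in siCtrl RNA, a log2 ratio of -1.20 (-1.45 to -0.95). Cdkn1c (p57), an imprinted inhibitor of cyclin-dependent kinases, had 16.7 CPM in siPKM RNA, against 35.7 CPM in siCtrl RNA, a ratio of -1.14 (-1.41 to -0.89). Dnmt3b, a de novo DNA methyltransferase, had 230.2 CPM in siPKM RNA, against 471 CPM in siCtrl RNA, a ratio of -1.08 (-1.15 to -1.01), and with 2384 reads in siPKM RNA and 5708 reads in siCtrl RNA it was among the best counted of the 20. In each of these the siPKM library was more than 2-fold below the siCtrl library. Notum, an extracellular enzyme that inactivates Wnt proteins, stood at -1.09, and Lefty1, a secreted Nodal antagonist, at -0.93. Enzymes were the steroid dehydrogenase Hsd17b14 at -1.10, the mitochondrial nuclease Endog at -1.07, Echdc2 at -1.04 and the adenylate kinase Ak1 at -0.95. The histone Hist3h2a stood at -1.08 and Tdrd12, a Tudor protein of the piRNA pathway, at -1.02. Cytoskeletal and vesicle proteins were the actinin Actn3 at -0.97, the clathrin light chain Cltb at -0.96, the catenin-like Ctnnal1 at -0.94 and the neurofilament Nefh at -0.89. The remaining rows were Ccdc34 at -0.95, the calsyntenin Clstn3 at -0.94, the reticulocalbin Rcn3 at -0.89 and Scand3 (Zbed5) at -0.86.

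**Figure D2:**
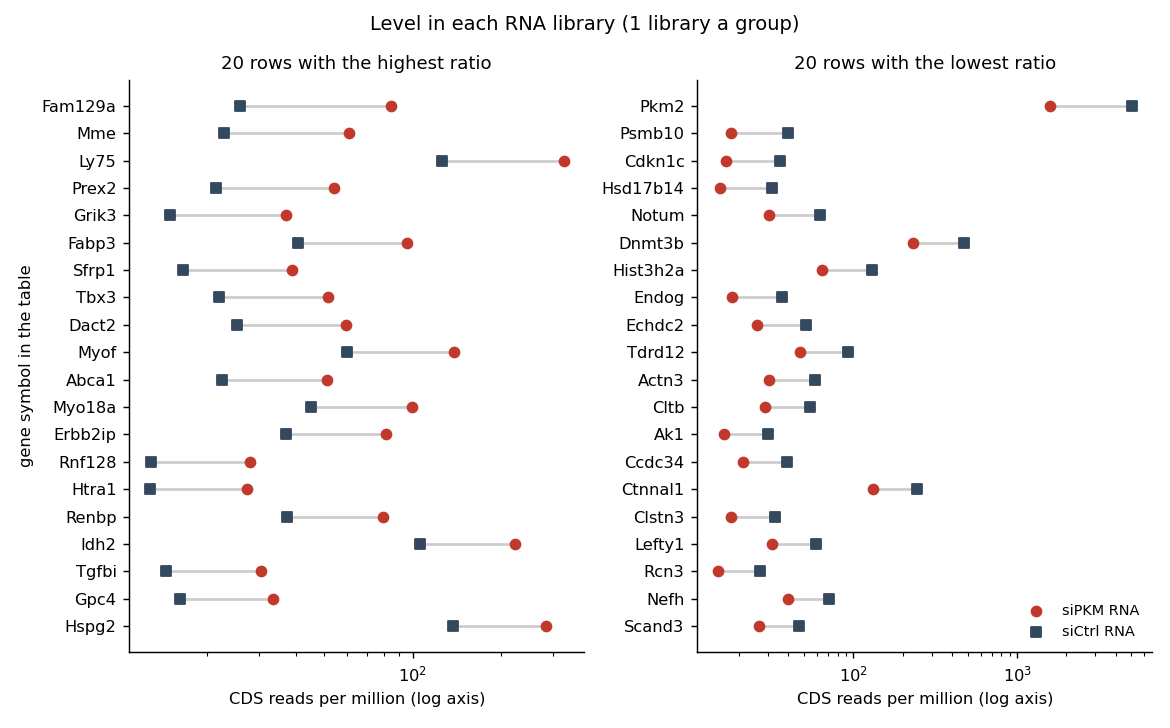
CPM of CDS reads (x axis, log scale) are shown in the siPKM RNA library (circles) and the siCtrl RNA library (squares) for the 20 rows with the highest ratio (left) and the 20 with the lowest (right), 1 library a group. Grey lines join the libraries. Pkm2 has 1581 CPM in siPKM RNA, against 5019.6 CPM in siCtrl RNA. The CPM are not centred on the median row.

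By the amount of RNA involved, the differences look different from those by ratio. The change in a gene's share of all CDS reads grows with its read count, and after Pkm, which lost 0.344 percentage points, the linker histone Hist1h1a lost most. Its share was 0.138% in siPKM RNA, against 0.206% in siCtrl RNA. Trim28, a corepressor that silences retroelements, had 0.343% in siPKM RNA, against 0.403% in siCtrl RNA. The losses that followed were those of Hist1h1b, the purine synthesis enzyme Gart, the splicing factor Sf3b1, the histone Hist2h2bb, the ribosomal protein Rplp0, the RNA-binding protein Hnrnpk and the cyclophilin Ppia. The largest gain was that of Flna, an actin crosslinker, with 0.211% in siPKM RNA, against 0.150% in siCtrl RNA. Fn1 (fibronectin) had 0.0889% in siPKM RNA, against 0.0461% in siCtrl RNA. The other gains were those of the dynein motor Dync1h1, the elongation factor Eef2, asparagine synthetase Asns, the cytoskeletal linker Macf1, the ubiquitin ligases Nedd4 and Huwe1, the glucose transporter Slc2a3 and the ribosomal protein Rpl13a. Eef2 and Rpl13a reached this list through their read counts, as their log2 ratios were only 0.14 and 0.05.

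The glycolytic enzymes around the target did not share a direction. None of the 11 members in the table was 1.5-fold apart, and their median log2 ratio of -0.03 was 0.01 without centring and 0.01 with the authors' totals. Glucose entry was on the higher side, with the transporters Slc2a3 at 0.41 (0.37 to 0.45) and Slc2a1 at 0.27 (0.20 to 0.33). Of the first steps, the hexokinases Hk2 and Hk1 stood at 0.23 and 0.09, glucose phosphate isomerase Gpi1 at 0.10, and the phosphofructokinases Pfkm, Pfkp and Pfkl at 0.05, -0.03 and -0.18. Aldolase Aldoa stood at 0.10. Members of the lower part were below the median row. Triose phosphate isomerase Tpi1 had 431 CPM in siPKM RNA, against 560.5 CPM in siCtrl RNA, a ratio of -0.43 (-0.48 to -0.37). Phosphoglycerate mutase Pgam1 stood at -0.34 (-0.39 to -0.28), phosphoglycerate kinase Pgk1 at -0.16 (-0.19 to -0.12) and the enolase Eno3 at -0.56 (-0.79 to -0.32). These enzymes have near-identical copies elsewhere in the genome, and the sources used here do not say how reads with several matches were counted. Gm5506, an enolase gene copy (Eno1b), had 2 rows, of which 1 was at least 1.5-fold lower at -0.74 by CDS reads but at -0.33, inside the limit, by whole-transcript reads.

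The lactate dehydrogenase subunits lay on opposite sides of the median row. Ldha, the subunit that predominates in tissues that make lactate, had 330.0 CPM in siPKM RNA, against 533 CPM in siCtrl RNA, a log2 ratio of -0.74 (-0.80 to -0.68). Ldhb, the subunit that predominates in oxidative tissues such as heart, had 283 CPM in siPKM RNA, against 149 CPM in siCtrl RNA, a ratio of 0.88 (0.79 to 0.96). Ldha was thus lower and Ldhb higher in the siPKM library, each by more than 1.5-fold with the whole interval beyond that limit. The 3' UTR reads gave -0.68 for Ldha and 0.95 for Ldhb. The lactate transporters Slc16a1 and Slc16a3 stood at -0.07 and -0.09, and their chaperone Bsg at 0.20.

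The windows of 250 bases before the RefSeq starts of both genes (GRCm38.p6) are shown because the pair lay on opposite sides. Capitals mark CACGTG, the E-box letters bound by Myc and other basic helix-loop-helix factors, which reads the same on both strands. RefSeq has a pair of starts for Ldha, the first at chr7:46845554-46845803, plus strand and the second at chr7:46846832-46847081, plus strand. Ldhb has 1, at chr6:142507958-142508207, minus strand.
Ldha, first start: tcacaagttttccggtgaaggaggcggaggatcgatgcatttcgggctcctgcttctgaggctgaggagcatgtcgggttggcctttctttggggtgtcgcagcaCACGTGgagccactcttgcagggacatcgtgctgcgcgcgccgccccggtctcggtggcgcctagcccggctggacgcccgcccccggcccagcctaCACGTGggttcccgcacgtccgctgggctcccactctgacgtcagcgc
Ldha, second start: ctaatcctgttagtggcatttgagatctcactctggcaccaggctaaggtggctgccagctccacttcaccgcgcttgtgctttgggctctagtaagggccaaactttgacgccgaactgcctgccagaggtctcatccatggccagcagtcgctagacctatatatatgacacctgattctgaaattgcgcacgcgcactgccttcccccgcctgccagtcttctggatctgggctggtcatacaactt
Ldhb: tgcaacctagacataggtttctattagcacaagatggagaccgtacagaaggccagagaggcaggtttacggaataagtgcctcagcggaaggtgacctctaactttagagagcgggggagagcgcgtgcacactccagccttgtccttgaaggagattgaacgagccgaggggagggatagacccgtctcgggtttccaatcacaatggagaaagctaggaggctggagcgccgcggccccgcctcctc
The first Ldha window holds the letters at 2 places, and neither the second Ldha window nor that of Ldhb holds them. They are in the windows of 611 of 5285 genes of the table with a window (11.6%), and in 2 of 13 genes of glycolysis and lactate dehydrogenase, Ldha and Pfkm. A match is a description of the letters, not a site.

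Pyruvate entry and the citric acid cycle held single genes that were higher and smaller differences in the rest. Of 13 genes of pyruvate entry, 1 was at least 1.5-fold higher and 0 lower, with a median log2 ratio of 0.14. That share of 7.69%, beside 2.88% of all rows, rests on 1 gene. Pcx, pyruvate carboxylase, which makes oxaloacetate from pyruvate, had 86.0 CPM in siPKM RNA, against 47.7 CPM in siCtrl RNA, a ratio of 0.80 (0.65 to 0.96). The malic enzyme Me1, which makes pyruvate from malate, stood at 0.51 (0.23 to 0.79), and Brp44l (Mpc1), a subunit of the mitochondrial pyruvate carrier, at 0.45 (0.24 to 0.66). The dehydrogenase subunits Dlat and Dld were slightly below the median row, at -0.17 and -0.12. In the citric acid cycle 1 of 20 genes (5.00%, near the 2.88% of all rows) was at least 1.5-fold higher and 0 lower, with a median of 0.01 that was -0.02 from whole-transcript reads. That gene was Idh2, the mitochondrial enzyme that makes 2-oxoglutarate with NADP, with 223 CPM in siPKM RNA, against 106 CPM in siCtrl RNA, a ratio of 1.03 (0.93 to 1.13). The NAD-dependent Idh3a, by contrast, stood at -0.18 and the cytosolic Idh1 at 0.04. Succinate dehydrogenase subunits ranged from -0.26 (Sdhc) to 0.32 (Sdhb).

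The lists of pathways that branch from glycolysis had medians below the median row. Of 7 pentose phosphate genes 0 passed 1.5-fold, with a median of -0.15, and the ribulose phosphate epimerase Rpe was lowest at -0.41. Serine synthesis and one-carbon enzymes (14 genes) also had a median of -0.15 and 0 past the limit, with the glycine cleavage members Gcsh at -0.48 and Gldc at -0.36 lowest and Mthfd1l at 0.16 highest. ATF4, CHOP and unfolded protein targets (17 genes) had a median of -0.04, which was 0.01 without centring. At least 1.5-fold higher was 1 of them (5.88%, beside 2.88% of all rows). That was asparagine synthetase Asns, a classic ATF4 target, with 1134 CPM in siPKM RNA, against 698 CPM in siCtrl RNA, a ratio of 0.65 (0.61 to 0.69). Trib3 stood at 0.45, while Psat1 and Herpud1 stood at -0.26 and -0.30 and Atf4 itself at -0.23. HIF-1 targets outside glycolysis (9 of 22 listed genes in the table) had a median of 0.08 and 0 past the limit. They ranged from the collagen hydroxylase Plod1 at 0.48 to the mitophagy receptor Bnip3 at -0.30.

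Among members of the lipid lists, Plin2 and Cpt1a had the largest ratios. The lipid-handling genes Fabp3 (1.19) and Abca1 (1.13) had larger ratios but were not in these lists. They were the 2 of 12 genes of lipid droplets and fatty acid oxidation (16.7%, beside 2.88% of all rows) that were at least 1.5-fold higher, and 0 were lower. Plin2, a lipid droplet coat protein, had 36.9 CPM in siPKM RNA, against 18.3 CPM in siCtrl RNA, a log2 ratio of 0.96 (0.72 to 1.21). Cpt1a, the rate-limiting enzyme of mitochondrial fatty acid import, had 73.0 CPM in siPKM RNA, against 38.7 CPM in siCtrl RNA, a ratio of 0.87 (0.70 to 1.04). The list median was 0.04, with Acadm (-0.22) and Etfb (-0.21) as the lowest members. Cholesterol synthesis and uptake (17 genes) had a median of 0.11 and 1 gene past 1.5-fold (5.88%, near the share of all rows), Nsdhl at 0.59 (0.29 to 0.89), which was 0.57 and inside the limit with 10 reads added, followed by Sc4mol (Msmo1) at 0.58, while Ebp and Fdps stood at -0.23 and -0.21. Fatty acid synthesis and desaturation (11 genes) had a median of 0.00 and 0 past the limit, with Elovl6 at 0.41 and Acly at -0.26 at the ends.

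Of all the lists, secreted and matrix proteins had the largest share of genes past 1.5-fold on the higher side. The lists and their members were chosen with earlier results of these data known. This ranking and the shares of all lists are therefore descriptions and not independent support. Of 34 such genes in the table, 12 (35.3%, beside 2.88% of all rows) were at least 1.5-fold higher and 2 (5.88%, beside 1.27%) lower, with a median log2 ratio of 0.36 and 25 members above the median row. Basement membrane components were among them. Fn1, fibronectin, had 889 CPM in siPKM RNA, against 461 CPM in siCtrl RNA, a ratio of 0.90 (0.85 to 0.95). Hspg2 had 283 CPM in siPKM RNA, against 137 CPM in siCtrl RNA, a ratio of 1.01 (0.92 to 1.09). Nid1, nidogen, had 158 CPM in siPKM RNA, against 79.8 CPM in siCtrl RNA, a ratio of 0.94 (0.83 to 1.06). The intervals of all 3 lay wholly beyond 1.5-fold, on the side of the siPKM library. Other members were the laminin Lama1 at 0.82, the collagen Col4a1 at 0.76, the follistatin-like Fstl1 at 0.85 and the growth factor Bmp4 at 0.84. Laminin chains were not uniform, since Lamb1 stood at -0.24 and Lama5 at -0.32. The lower members past the limit were the signalling antagonists Notum and Lefty1.

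Beside this list stand markers of other cell types that make matrix. Of 7 defining primitive endoderm markers only Cubn was in the table, with a summed level of 16.4 CPM in siPKM RNA and 15.1 CPM in siCtrl RNA, and Gata4, Gata6, Sox17, Foxa2, Amn and Dab2 were not in it. In the wider primitive endoderm list 6 of 19 genes were in the table, with a median of 0.31, but its higher members Lama1, Col4a1 and Col4a2 (0.51) are matrix genes too. Of 5 fibroblast and feeder markers only vimentin, Vim, was in the table, with 304 CPM in siPKM RNA, against 229 CPM in siCtrl RNA, a log2 ratio of 0.36 (0.29 to 0.44). The part of other cells in the matrix result was not tested. In these bulk samples, fewer cells of a type and less RNA per cell cannot be told apart.

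Plasma membrane receptors and adhesion proteins were shifted in the same direction. Past the 1.5-fold limit were 11 of 59 genes (18.6%, beside 2.88% of all rows) on the higher side and 1 (1.69%, near the 1.27% of all rows) on the lower, the median was 0.21, and 48 genes lay above the median row. After Mme, Ly75 and Grik3, the integrin Itga3 had 101 CPM in siPKM RNA, against 50.1 CPM in siCtrl RNA, a ratio of 0.97 (0.82 to 1.11). The ephrin receptor Ephb2 stood at 0.77. The 1 gene on the other side was Epcam, the epithelial adhesion molecule of stem cells, with 145 CPM in siPKM RNA, against 237 CPM in siCtrl RNA, a ratio of -0.75 (-0.84 to -0.66). The ephrin receptor Epha4 was next lowest at -0.49, so that receptors of 1 family stood on both sides.

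Lysosomal proteins and the folding machinery of the endoplasmic reticulum (ER) gave smaller shifts. Of 31 lysosomal genes 4 (12.9%, beside 2.88% of all rows) were at least 1.5-fold higher and 0 lower, 27 were above the median row, and the median was 0.29. By whole-transcript reads 2 were past the limit. Hexa, a hexosaminidase subunit, had 82.1 CPM in siPKM RNA, against 43.9 CPM in siCtrl RNA, a ratio of 0.86 (0.70 to 1.02). The protease Ctsl had 241 CPM in siPKM RNA, against 148 CPM in siCtrl RNA, a ratio of 0.66 (0.57 to 0.75). The proton pump accessory protein Atp6ap1 stood at 0.62 (0.54 by whole-transcript reads), while the lowest members were Gusb at -0.36 and Manba at -0.23. Of 23 lysosomal genes with a promoter window 9 held CACGTG, the letters bound by TFEB-type factors, beside 11.6% of all genes with a window. Those 9 were Lamp1, Ctsa, Ctsd, Ctsl, Gaa, Gla, Glb1, Nagpa and Mcoln1, of which Ctsl is also among the 4 genes past 1.5-fold. ER chaperones and folding enzymes (25 genes) had a median of 0.12 with 19 above the median row. Only Serpinh1, the collagen chaperone Hsp47, was past 1.5-fold (4.0% of the list, beside 2.88% of all rows). It had 94.0 CPM in siPKM RNA, against 59.9 CPM in siCtrl RNA, a ratio of 0.60 (0.46 to 0.74). Next was Hyou1 at 0.52 (0.45 to 0.59).

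Actin cytoskeleton genes and targets of serum response factor were also mostly above the median row. Of 22 genes 3 (13.6%, beside 2.88% of all rows) were at least 1.5-fold higher and 0 lower, 18 were above 0, and the median was 0.19. Cnn3, a calponin, had 356 CPM in siPKM RNA, against 215 CPM in siCtrl RNA, a ratio of 0.68 (0.61 to 0.75). Ctgf (Ccn2), a matricellular target of YAP, stood at 0.65 (0.40 to 0.89) and Tagln2 at 0.61 (0.47 to 0.75). The filamin Flna stood at 0.45 (0.42 to 0.48), whereas its RPF ratio was -0.17. Tropomyosin Tpm2 was lowest at -0.56. Intermediate filaments gave values on both sides. The keratins Krt8 and Krt18 stood at 0.59 and 0.37 and vimentin as above, while the neuronal filaments Ina and Nefl stood at -0.81 and -0.61 and nestin, Nes, at -0.54. Of the 9 filament genes 1 (11.1%, beside 2.88% of all rows) was at least 1.5-fold higher and 2 (22.2%, beside 1.27%) lower. The list median was -0.06, and the neurofilament Nefh, at -0.89, was not a member of the list. Both Krt8 (0.57 with 10 reads added) and Nefl (-0.56 without centring) were near enough to the limit to fall inside it under other settings.

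**Figure D3:**
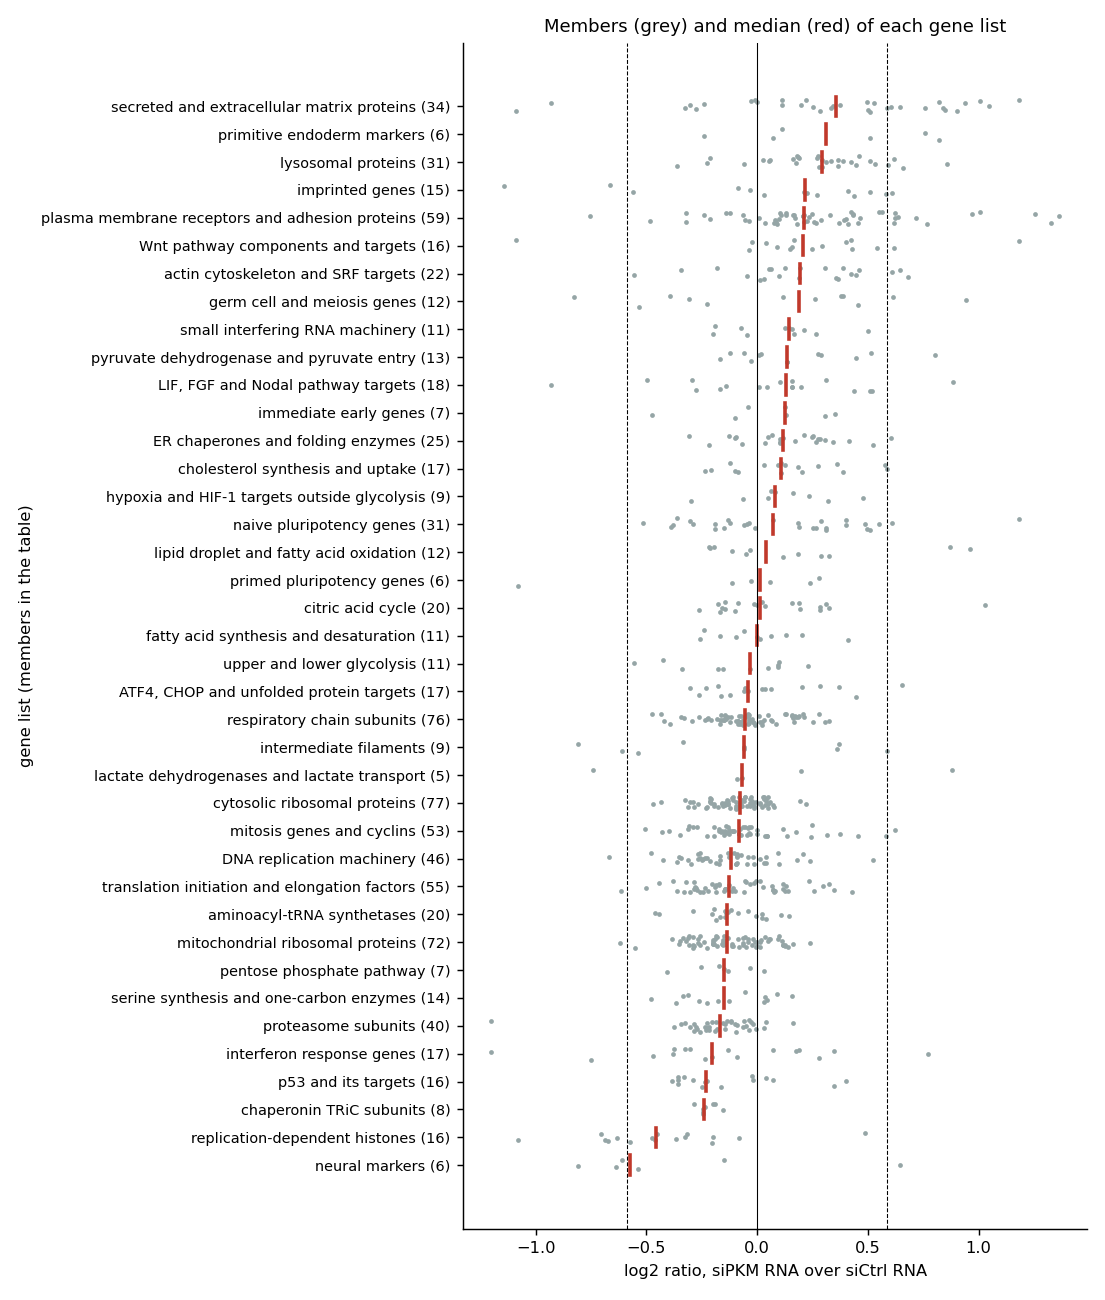
Log2 ratios of siPKM RNA over siCtrl RNA (x axis) are shown for each member (grey points) and the median (red bars) of the gene lists with at least 5 members, ordered by median, with the member count in parentheses and dashed lines at 1.5-fold. Secreted and matrix proteins are at the top with a median of 0.36, and replication-dependent histones (-0.46) and neural markers (-0.57) are at the bottom.

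Messages of replication-dependent histones, which package new DNA during S phase, were the lowest of the larger lists. Of 16 genes 0 were at least 1.5-fold higher and 5 (31.2%, beside 1.27% of all rows) lower, 15 were below the median row, and the median log2 ratio was -0.46. Hist3h2a had 63.8 CPM in siPKM RNA, against 131 CPM in siCtrl RNA. Hist2h2bb had 644 CPM in siPKM RNA, against 994 CPM in siCtrl RNA, a ratio of -0.67 (-0.72 to -0.63). Both were lower in siPKM RNA than in siCtrl RNA. The single member above the median row was Hist2h2ab at 0.49 (0.26 to 0.72). The list holds near-identical copies, so the values of single histone genes are uncertain. The strand setting was not given either, and reads of overlapping antisense genes cannot be told apart. These messages mostly lack poly(A) tails, and the libraries came from ribosomal RNA depletion.

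The 5 linker histone H1 genes in the list were singled out after their values had been seen. Hist1h1a had 1376 CPM in siPKM RNA, against 2062 CPM in siCtrl RNA, a ratio of -0.63 (-0.66 to -0.60). Hist1h1b had 826 CPM in siPKM RNA, against 1287 CPM in siCtrl RNA, a ratio of -0.69 (-0.73 to -0.65). Hist1h1e had 164 CPM in siPKM RNA, against 258 CPM in siCtrl RNA, a ratio of -0.70 (-0.79 to -0.62). These 3 were more than 1.5-fold lower, although Hist1h1a was just inside that limit without centring, at -0.58. Hist1h1c and Hist1h1d stood at -0.45 (-0.50 to -0.40) and -0.36 (-0.41 to -0.32). The median over the 5 was -0.63 in RNA and -0.62 in RPF. In S phase these genes are switched on together, and vertebrate H1 promoters are known for the letters AAACACA (the H1 box) upstream of a CCAAT box.

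The 250 bases before their RefSeq starts (GRCm38.p6) are shown because the genes are close copies that stood on 1 side. Capitals mark AAACACA and CCAATCA, searched on both strands, which did not overlap. The windows are Hist1h1a (H1f1) at chr13:23763418-23763667, plus strand, Hist1h1b (H1f5) at chr13:21780626-21780875, minus strand, Hist1h1c (H1f2) at chr13:23738557-23738806, plus strand, Hist1h1d (H1f3) at chr13:23554782-23555031, plus strand and Hist1h1e (H1f4) at chr13:23622559-23622808, minus strand.
Hist1h1a: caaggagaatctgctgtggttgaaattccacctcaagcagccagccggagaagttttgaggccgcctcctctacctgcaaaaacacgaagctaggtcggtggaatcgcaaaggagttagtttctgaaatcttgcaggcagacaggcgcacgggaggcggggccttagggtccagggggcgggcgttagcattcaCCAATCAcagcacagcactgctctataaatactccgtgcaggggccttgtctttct
Hist1h1b: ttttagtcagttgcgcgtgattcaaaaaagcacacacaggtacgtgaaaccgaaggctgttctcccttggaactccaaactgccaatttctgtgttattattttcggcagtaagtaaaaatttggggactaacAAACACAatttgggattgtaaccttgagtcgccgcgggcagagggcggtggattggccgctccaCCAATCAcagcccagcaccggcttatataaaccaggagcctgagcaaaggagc
Hist1h1c: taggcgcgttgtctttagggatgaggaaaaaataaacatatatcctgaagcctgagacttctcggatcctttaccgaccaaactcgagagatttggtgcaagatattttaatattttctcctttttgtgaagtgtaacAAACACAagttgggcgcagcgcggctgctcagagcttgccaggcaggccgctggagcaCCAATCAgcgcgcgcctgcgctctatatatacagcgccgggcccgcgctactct
Hist1h1d: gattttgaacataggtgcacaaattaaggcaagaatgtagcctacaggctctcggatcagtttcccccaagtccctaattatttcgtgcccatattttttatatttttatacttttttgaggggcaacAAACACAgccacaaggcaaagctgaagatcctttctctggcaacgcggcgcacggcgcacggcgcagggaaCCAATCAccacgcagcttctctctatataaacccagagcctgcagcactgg
Hist1h1e: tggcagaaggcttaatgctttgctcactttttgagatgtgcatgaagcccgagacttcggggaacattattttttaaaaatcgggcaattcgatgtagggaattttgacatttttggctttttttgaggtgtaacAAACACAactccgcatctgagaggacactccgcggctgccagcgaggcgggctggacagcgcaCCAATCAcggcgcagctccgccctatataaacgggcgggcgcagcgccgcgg
CCAATCA is in the windows of all 5 H1 genes and in 11.8% of the 5285 genes with a window. AAACACA is in 4 of the 5, all but Hist1h1a, and in 4.86% of genes. Of 10 histone genes of the list outside H1 with a window, 4 hold CCAATCA and 0 hold AAACACA. The letters TATAAA are in 4 of the 5 H1 windows, in 5 of the 10 other histone windows and in 7.04% of all. Hist1h1a, the gene without AAACACA in its window, was among the 3 that were past 1.5-fold.

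DNA replication and mitosis genes were slightly below the median row. Of 46 replication genes 0 were at least 1.5-fold higher and 1 (2.17%, beside 1.27% of all rows) lower, 36 were below 0, and the median was -0.12. That gene was Dut, the dUTPase that keeps uracil out of DNA, with 106 CPM in siPKM RNA, against 164 CPM in siCtrl RNA, a ratio of -0.67 (-0.78 to -0.56). The single-strand binding protein Rpa1 stood at -0.48 (-0.53 to -0.43), and the helicase cofactor Gins2 was at the other end at 0.52 (0.33 to 0.72). Of 53 mitosis genes and cyclins 1 (1.89%, beside 2.88% of all rows) was at least 1.5-fold higher and 0 lower, with 39 below 0 and a median of -0.08. The cyclin Ccnd3 stood at 0.62 (0.50 to 0.75), or 0.55 and inside the limit by whole-transcript reads, and the proliferation marker Mki67 just under the limit at 0.58 (0.45 to 0.71), while the kinase Plk1 and the cyclin Ccne2 stood at -0.50 (-0.62 to -0.39) and -0.43 (-0.64 to -0.23). Among cyclin-dependent kinase inhibitors, Cdkn1b (p27) at 0.44 (0.19 to 0.69) lay opposite Cdkn1c. Genes of p53 and its targets (16 of 28 listed in the table) had a median of -0.23 and 0 past 1.5-fold, with 12 below 0. The mRNA of p53 itself, Trp53, stood at 0.40 (0.28 to 0.52), and its targets Zmat3 and Ccng1 at -0.38 (-0.63 to -0.14) and -0.36 (-0.45 to -0.27).

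Complexes of protein synthesis and quality control were narrowly spread around values under the median row. Of 77 cytosolic ribosomal protein genes 0 were past 1.5-fold, 60 were below 0, and the median was -0.08, which was -0.03 without centring and equals that of the highest bin of mean CPM. Rps15 was the highest of them at 0.22. Mitochondrial ribosomal proteins (72 genes) had a median of -0.14 with 54 below 0. At least 1.5-fold lower was 1 gene (1.39%, near the 1.27% of all rows), Mrps23 at -0.62 (-0.82 to -0.41). It was inside the limit without centring (-0.57) and by whole-transcript reads (-0.29). All 8 subunits of the chaperonin TRiC, which folds actin and tubulin, lay between -0.28 (Cct6a) and -0.15 (Tcp1), with a median of -0.24 that was -0.19 without centring. Of 40 proteasome subunits 37 were below 0, with a median of -0.17, from Psme4 at 0.16 to Psmb10. Psmb10 was the 1 gene past the limit (2.5%, beside 1.27% of all rows lower). The other interferon-inducible subunit at the low end was the activator Psme2 at -0.37. Translation initiation and elongation factors (55 genes, taken by name, so that the kinases Eif2ak2 and Eif2ak4 are included) had a median of -0.13. Past the limit was 1 gene (1.82%, near the 1.27% of all rows lower), Eif1a at -0.61 (-0.87 to -0.36). It was likewise inside the limit without centring (-0.57) and by whole-transcript reads (-0.09). Aminoacyl-tRNA synthetases (20 genes) had a median of -0.13 and 0 past it, from Rars at -0.46 to Iars at 0.15. Respiratory chain subunits (76 genes) had a median of -0.05 and 0 past it, from Uqcrh at -0.48 to Sdhb at 0.32. The 1 mitochondrially encoded row, named mt-Nd4, had an RNA ratio of 0.53 (0.43 to 0.63) beside an RPF ratio of -0.40, and its identity is uncertain because the table describes it as chain 4L.

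Pluripotency genes held differences in both directions. Of 31 naive pluripotency genes 2 (6.45%, beside 2.88% of all rows) were at least 1.5-fold higher and 0 lower. Above the median row lay 16, and the median was 0.07. Tbx3 had 51.5 CPM in siPKM RNA, against 21.9 CPM in siCtrl RNA, a log2 ratio of 1.18 (0.97 to 1.40), and Tcl1 stood at 0.61 (0.33 to 0.88), or 0.44 and inside the limit by whole-transcript reads. The nuclear receptor Esrrb had 233 CPM in siPKM RNA, against 154 CPM in siCtrl RNA, a ratio of 0.55 (0.46 to 0.64), just under the limit. Klf2 stood at -0.52 (-0.69 to -0.34), Dnmt3l at -0.39 and Lin28a at -0.38. Primed pluripotency genes (6) had a median of 0.01 and 1 gene past the limit, Dnmt3b (16.7%, beside 1.27% of all rows lower). The other de novo methyltransferase, Dnmt3a, stood at -0.03 (-0.10 to 0.04) and the demethylase Tet1 at 0.49 (0.41 to 0.57). Of the markers of the two-cell-like state only Eif1a was in the table.

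Signalling readouts also pointed in more than 1 direction. Among 18 targets of LIF, FGF and Nodal signalling 1 was at least 1.5-fold higher and 1 lower, with a median of 0.13. That is 5.56% on each side, beside 2.88% of all rows higher and 1.27% lower. Dusp6, a phosphatase induced by ERK, had 149.9 CPM in siPKM RNA, against 78.5 CPM in siCtrl RNA, a ratio of 0.89 (0.77 to 1.00). Lefty1, a Nodal target, had 32.0 CPM in siPKM RNA, against 59.0 CPM in siCtrl RNA, a ratio of -0.93 (-1.12 to -0.74). Etv4 and Smad7 stood at 0.51 and 0.52, and Skil, an inhibitor of Smad proteins, at -0.50. Of 16 Wnt genes 2 (12.5%) were higher, Sfrp1 and Amotl2 (0.62), and 1 (6.25%) lower, Notum. Notum had 30.3 CPM in siPKM RNA, against 62.4 CPM in siCtrl RNA. The median of the Wnt list was 0.21, and the shares of both lists rest on 1 or 2 genes. Apc, a scaffold of the beta-catenin destruction complex, stood at 0.54 and Ctnnb1, beta-catenin, at -0.04. Immediate early genes (7 of 20 listed in the table) had a median of 0.12 and 0 past the limit, from Klf10 at -0.48 to Jund at 0.35.

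Lineage, germline and imprinted genes gave single members at both ends. Neural markers were the lowest of the lists with at least 5 genes, with 6 genes in the table and a median of -0.57. Of these 1 (16.7%, beside 2.88% of all rows) was at least 1.5-fold higher and 3 (50.0%, beside 1.27%) lower. Ina had 20.7 CPM in siPKM RNA, against 35.1 CPM in siCtrl RNA, a ratio of -0.81 (-1.05 to -0.57). The tubulin Tubb3 had 61.5 CPM in siPKM RNA, against 92.6 CPM in siCtrl RNA, a ratio of -0.64 (-0.78 to -0.49). Nefl was the other lower member at -0.61 (-0.79 to -0.43), which was inside the limit without centring (-0.56) and by whole-transcript reads (-0.57), leaving 2 lower. Ncam1 was on the higher side at 0.64 (0.37 to 0.92). The neurofilament Nefh, at -0.89, was not a member of this list. The 4 of 5 defining neural markers in the table summed to 146 CPM in siPKM RNA and 212 CPM in siCtrl RNA, with Pax6 at -0.15 and Sox1 not in the table. Trophoblast markers summed to 83.5 CPM in siPKM RNA and 77.5 CPM in siCtrl RNA, with 3 of 8 in the table, of which Krt8 and Krt18 stood at 0.59 (0.35 to 0.82) and 0.37 (0.10 to 0.64) and Tcfap2c at -0.61 (-0.83 to -0.38). The list median was 0.37, and without centring Tcfap2c was inside the limit at -0.56. Of the defining mesoderm markers 0 of 4 were in the table. Of 12 germ cell genes 2 (16.7%) were higher, Dazl at 0.95 (0.65 to 1.24) and Sycp3 at 0.61 (0.46 to 0.76) (0.50 by whole-transcript reads). The 1 lower (8.33%) was Dmrt1 at -0.83 (-1.10 to -0.56), and the list median was 0.19. Of 15 imprinted genes 1 (6.67%) was higher, Zdbf2 at 0.61 (0.51 to 0.70), and 2 (13.3%) lower, Cdkn1c and Mcts2, with a median of 0.22. Mcts2 stood at -0.66 (-0.86 to -0.47), or -0.56 by whole-transcript reads. The neural and trophoblast markers in the table are also members of these lists, so their sums are not a separate reading. The part of other cell types in the results was not tested.

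The siRNA itself and interferon responses were looked at because both groups were transfected with RNA. Small RNA machinery (11 genes) had a median of 0.15 and 0 past 1.5-fold, with the Argonaute Eif2c2 (Ago2) at 0.50 (0.39 to 0.61) and the Dicer partner Tarbp2 at -0.20 (-0.31 to -0.08). Of 37 listed interferon response genes 17 were in the table, with a median of -0.20, and the other listed genes could not be read here. Of these 1 (5.88%, beside 2.88% of all rows) was at least 1.5-fold higher and 2 (11.8%, beside 1.27%) lower. The higher one was Zc3hav1 (ZAP), an antiviral RNA-binding protein, with 49.3 CPM in siPKM RNA, against 28.0 CPM in siCtrl RNA, a ratio of 0.77 (0.57 to 0.97). The lower ones were Psmb10 and Bst2 (tetherin), which had 24.9 CPM in siPKM RNA, against 40.6 CPM in siCtrl RNA, a ratio of -0.75 (-0.97 to -0.53). The RNA sensors Ddx58 (RIG-I) and Eif2ak2 (PKR) stood at 0.18 and 0.35, and the transcription factor Irf1 stood at -0.30.

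The 3' UTR reads of the same libraries gave a second reading of each message, which is not a replicate. For 4972 rows with at least 100 such reads in each library the difference between the 3' UTR and CDS log2 ratios had an SD of 0.204. Of these, 36 (0.724%) had a 3' UTR ratio at least 1.5-fold above the CDS ratio and 33 (0.664%) at least 1.5-fold below it. Gmps, GMP synthetase, had 3614 reads in siPKM RNA and 5277 reads in siCtrl RNA in the CDS and 373 3' UTR reads in siPKM RNA and 234 in siCtrl RNA, a difference of 1.22 (0.98 to 1.46). Its 3' UTR reads were thus higher and its CDS reads lower in the siPKM library. The heat shock protein Hspa4 had 16895 reads in siPKM RNA and 23309 reads in siCtrl RNA in the CDS and 1572 3' UTR reads in siPKM RNA and 1175 in siCtrl RNA, a difference of 0.88 (0.77 to 1.00). The others at this end were Ddx49 at 0.91 (0.57 to 1.26), Ints12 at 0.89 (0.49 to 1.30) and Klf3 at 0.84 (0.43 to 1.24). Named at the opposite end were Xpnpep3 at -0.89 (-1.31 to -0.48), Dennd5b at -0.84 (-1.17 to -0.51), Zfp64 at -0.76 (-1.15 to -0.37) and Smcr7 (Mief2) at -0.74 (-1.17 to -0.32). With at least 400 3' UTR reads in each library the counts were 5 above and 3 below.

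**Figure D4:**
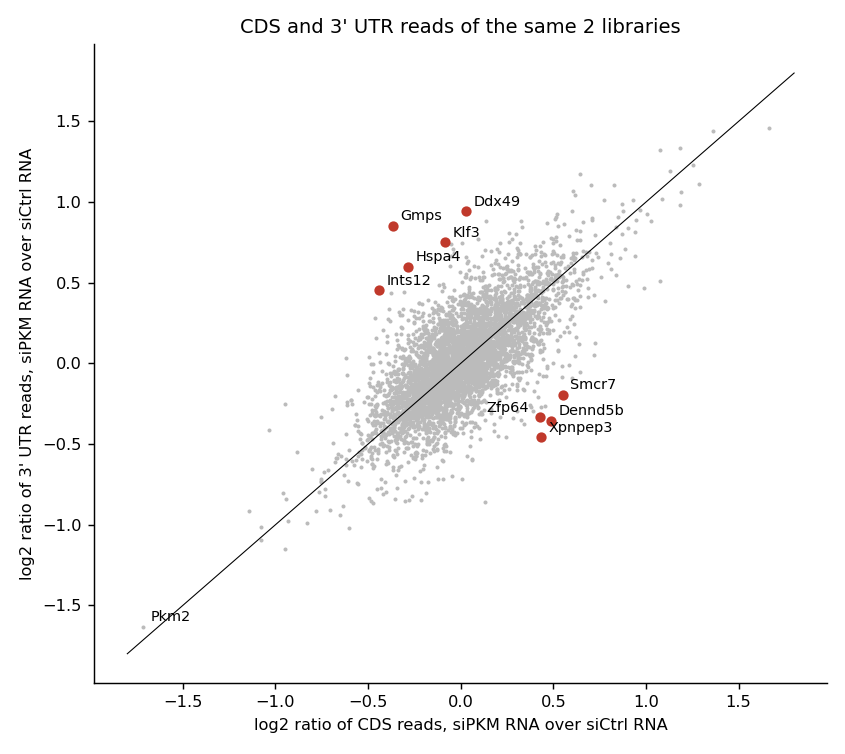
The log2 ratio of 3' UTR reads (y axis) is plotted against that of CDS reads (x axis), siPKM RNA over siCtrl RNA, for 4972 rows, with the line of equal ratios. Red points are the 5 rows furthest above the line, led by Gmps, and 4 of the 5 furthest below it, and Pkm2 lies near the line at -1.71 and -1.63.

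The ratios of the footprint libraries are given beside those of RNA as values. They come from other libraries of the same culture conditions and depend on message level. Mme stood at 1.36 in RNA and 1.83 in RPF, Fam129a at 1.67 and 1.70, and Dnmt3b at -1.08 and -1.14. Ccdc34 had the widest gap among the 20 lowest, at -0.95 in RNA and -0.41 in RPF. Among rows at least 1.5-fold higher in RNA, those with the lowest RPF ratio were the zinc finger gene Zfp932 at 0.72 and -0.25, the ankyrin Ank2 at 0.63 and -0.12, Arhgap39 at 0.59 and -0.03, Kctd9 at 0.63 and -0.00, and Ssbp4 at 0.64 and 0.01. Among rows at least 1.5-fold lower in RNA, those with the highest RPF ratio were Eif1a at -0.61 and 0.17, the deubiquitinase Atxn3 at -0.59 and -0.11, Mrps23 at -0.62 and -0.13, Mitd1 at -0.62 and -0.16, and Gm5506 at -0.74 and -0.17. For Eif1a and Mrps23 the 3' UTR ratios were -0.07 and 0.03, nearer to 0 than their CDS ratios.

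**Figure D5:**
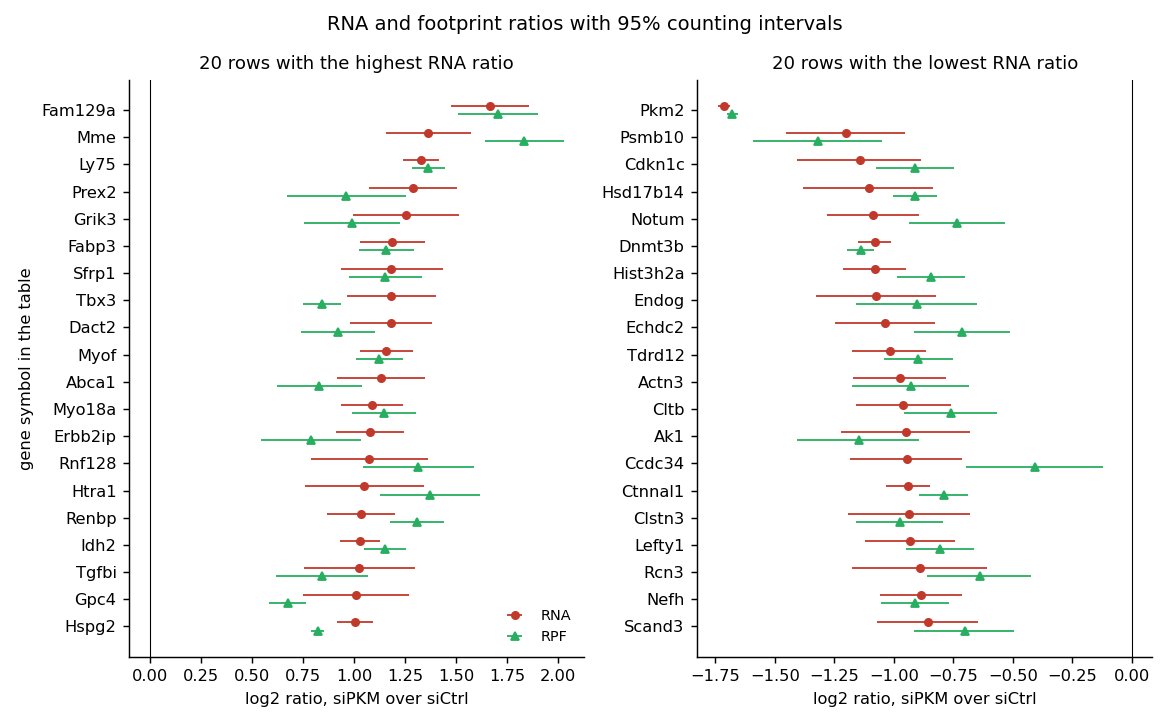
Log2 ratios of siPKM over siCtrl (x axis) in RNA (circles) and RPF (triangles) are shown with 95% counting intervals (bars) for the 20 rows with the highest RNA ratio (left) and the 20 with the lowest (right), 1 library of each kind a group. The RPF ratios lie between 0.68 (Gpc4) and 1.83 (Mme) on the left and between -1.68 (Pkm2) and -0.41 (Ccdc34) on the right.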

How the data were processed

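The authors deposited 1 table of raw read counts per transcript region (5' UTR, first 15 codons, CDS, last 5 codons, 3' UTR), per the file headers, and log2 RPM values, which served as an alternative. The submitters' processing notes name cutadapt, Bowtie2 and mm9. The counting tool, strand setting and multi-match rule are not given in the sources used here. Left out was 1 column without a sample. Groups were taken from the sample titles. From the CDS counts, log2 ratios of shares were computed without a pseudocount and centred on the median of 6535 rows (Python 3.11.15, scipy 1.17.1), with exact conditional binomial intervals, and the code was checked on simulated counts. PCR reads are not independent molecules. Rows and the 46 gene lists were described by counts past 1.5-fold and medians, since 1 library a group leaves no residual degrees of freedom. Members and lists were chosen with earlier results of these data known. Shares and medians of lists use only members in the table. Named are the 20 rows with the highest and lowest ratio, the 10 with the largest gain and loss in share, list members past 1.5-fold (up to 6) and the 2 at each end, 5 at each end by 3' UTR or RPF ratio, Ldha and Ldhb. Other list members were named after their values were seen, and a few genes are not reported here. RefSeq accessions of 6471 rows matched a GRCm38.p6 gene table, used for current names (640 differed) and promoter windows. Since the files use mm9, no other coordinates are given.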

Additional observations from a re-analysis of the deposited data

How the results depend on the processing

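No paired analysis was possible because each group had 1 library. Calls were most frequent in the rows with the fewest reads, with 68 higher and 25 lower in the lowest of 5 equal bins of mean CPM and 14 and 15 in the highest. With only rows of at least 500 CDS reads, 97 rows were at least 1.5-fold higher and 38 lower. At 2-fold the counts were 21 and 10, and with the whole 95% counting interval past 1.5-fold they were 61 and 35. Counts of 3' UTR against CDS ratios were 5 and 3 with at least 400 reads. Each of these settings admitted fewer rows or only larger differences, and all these counts were below those of the main setting. Without centring the rows past 1.5-fold numbered 243 higher and 62 lower, and with the authors' log2 values 240 and 63. The log2 ratio of Pkm2 kept its direction and stayed past 1.5-fold under every alternative. Medians of lists near 0 changed sign under some alternatives: glycolysis, ATF4 targets, citric acid cycle, fatty acid synthesis, lipid droplet and oxidation genes (-0.08 with at least 500 reads), and naive (-0.00) and primed (-0.52, with 2 members left) pluripotency genes. Among single genes, Eif1a (-0.09), Atxn3 (-0.32), Mrps23 (-0.29), Gm5506 (-0.33), Arhgap39 (0.24), Kctd9 (0.45) and Ssbp4 (0.51) were inside 1.5-fold by whole-transcript reads, as were Itgav (0.35), Itga5 (0.54), Atp6ap1 (0.54), Ccnd3 (0.55), Tcl1 (0.44), Sycp3 (0.50), Mcts2 (-0.56) and Nefl (-0.57). Inside the limit without centring were Hist1h1a (-0.58), Eif1a (-0.57), Mrps23 (-0.57), Mitd1 (-0.57), Atxn3 (-0.55), Nefl (-0.56) and Tcfap2c (-0.56).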

Other observations

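The row with the most 3' UTR reads in siPKM RNA was 1200014J11Rik. It had 360825 such reads in siPKM RNA and 381017 in siCtrl RNA, against 1050 and 1182 CDS reads in the same libraries. It was not the only row with more reads in the 3' UTR than in the CDS. Ptma, for example, had 39748 3' UTR reads and 7746 CDS reads in siPKM RNA. Over 5 bins of 1307 rows ordered by mean PKM2 crosslinking CPM, from low to high, the median log2 RNA ratio of siPKM over siCtrl was -0.05, -0.01, -0.01, 0.01 and 0.06. Rows at least 1.5-fold higher numbered 34, 39, 29, 38 and 48 in these bins and rows at least 1.5-fold lower 30, 20, 10, 10 and 13. The crosslinking counts were not normalised to message level or length, and these values are a description with no test.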
